A study of Rattus norvegicus with 6 samples.

Results

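Interferon response genes are the transcripts that cells switch on when interferons bind their receptors, and 34 of them were followed here in mammary tumors of rats. Some of the rats had been given diallyl trisulfide (DATS), a sulfur compound that forms in crushed garlic, and the others its vehicle. The 34 were selected on values measured in these same tumors, and Apol9a was included because its levels separated the 2 groups. They comprise 25 genes known mainly as targets of type I interferon, 8 known mainly as targets of interferon gamma, and Apol9a. The deposited table of 32545 rows held 33 of the 34 symbols, 1 of them spelled in capitals (XAF1), on 34 rows because Tap2 stood on 2 rows, and Oas1b was not matched. A mean of 1 FPKM or more (fragments per kilobase of gene, scaled for depth) over the 6 tumors was reached by 13631 rows of the table. It was reached by 32 of the 33 matched genes, and Ido1 was the exception. Because the selection used the DATS and vehicle values, differences of the 34 genes between the groups are descriptions and carry no test.

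All tumors were induced in female Sprague-Dawley rats with N-methyl-N-nitrosourea (MNU), an alkylating carcinogen, injected intraperitoneally at 50 mg/kg when the animals were 21 days old. Gavage began 1 week after the injection and went on for 10 weeks, 5 times a week, with 100 µL corn oil in the vehicle group (3 tumors) or DATS at 50 mg/kg dissolved in corn oil in the DATS group (3 tumors). Both groups therefore shared the carcinogen and the corn oil. Whether each tumor had its own animal is not stated in the labels. The spread between tumors, and any p resting on it, may therefore not measure the spread between animals.

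Type I interferons act through the receptor pair IFNAR1 and IFNAR2, and the signal is carried to the nucleus by a complex that includes STAT2 and IRF9 and binds the interferon-stimulated response element (ISRE). Interferon gamma, made mostly by T and NK cells, acts through IFNGR1 and IFNGR2 and, in the nucleus, at gamma-activated sites (GAS). The first program is best known for antiviral proteins and RNA sensors, the second for antigen presentation and for the checkpoint ligand PD-L1, and several genes answer to both.

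Promoter windows of RefSeq (assembly GRCr8, 250 bases before to 50 after the gene start) were held for 25 of the 34 genes. The genes without an entry were Ddx58, Dhx58, Usp18, Isg15, Ifit1, Ifit2, Mx2, Oas2 and Ido1. Each window was searched on both strands for an ISRE-like core, GAAANNGAAA (GAAA, any 2 bases, GAAA), and for a GAS-like core, TTCNNNGAA. The stretches printed here are a selection from the genes with a match, with matches in capitals, given 5′ to 3′ on the strand of the gene. On that strand an ISRE-like core of the opposite strand reads as TTTC, any 2 bases, TTTC.
Ifi27, chr6:128355118-128355262, plus strand: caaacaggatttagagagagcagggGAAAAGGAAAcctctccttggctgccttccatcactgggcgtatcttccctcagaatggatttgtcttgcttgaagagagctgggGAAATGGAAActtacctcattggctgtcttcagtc
Rsad2, chr6:48788233-48788292, minus strand: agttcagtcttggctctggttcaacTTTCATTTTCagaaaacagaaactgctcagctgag
Irf7, chr1:205800058-205800117, minus strand: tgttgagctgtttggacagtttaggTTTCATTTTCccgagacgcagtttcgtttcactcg
Oas1a, chr12:41330400-41330465, plus strand: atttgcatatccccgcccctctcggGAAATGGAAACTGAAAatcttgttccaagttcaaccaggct
Ifih1, chr3:67683993-67684052, minus strand: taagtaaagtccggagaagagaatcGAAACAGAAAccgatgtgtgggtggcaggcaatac
Apol9a, chr7:111028245-111028310, minus strand: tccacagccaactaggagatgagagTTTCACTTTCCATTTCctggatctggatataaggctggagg
Gbp2, chr2:234005671-234005726, plus strand: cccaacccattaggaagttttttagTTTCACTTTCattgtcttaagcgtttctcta
Tap1, chr20:4668630-4668689, minus strand: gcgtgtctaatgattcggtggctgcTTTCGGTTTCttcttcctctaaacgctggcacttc
Irf1, chr10:38417768-38417826, plus strand: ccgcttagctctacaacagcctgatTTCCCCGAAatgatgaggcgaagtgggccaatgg
Irf8, chr19:65699079-65699156, plus strand: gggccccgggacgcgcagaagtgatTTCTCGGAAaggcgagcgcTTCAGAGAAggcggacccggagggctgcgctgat

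The ISRE-like core was found in 12 of 17 windows of type I genes (70.6%), in 4 of 7 windows of gamma genes (57.1%) and in the Apol9a window. Among all 33469 promoter windows of the same length, 1312 (3.92%) held it. In Oas1a and in Apol9a a pair of matches overlapped, sharing 1 GAAA or TTTC block, and in Ifi27 the pair lay apart. The GAS-like core was found in 4 of 17 type I windows (23.5%, Irf9, Ifi44l, Oas1a and Oas1b), in 2 of 7 gamma windows (28.6%, Irf1 and Irf8) and in 8.87% of all windows. The 17 type I windows include that of Oas1b, which was not matched to a row. Its matches to both cores had the same bases as those of Oas1a, a near neighbour. No match to either core was found in the windows of Stat2, Mx1, Oasl, Parp9 and Cd274. A match is a run of letters and was not tested as a binding site.

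**Figure D1:**
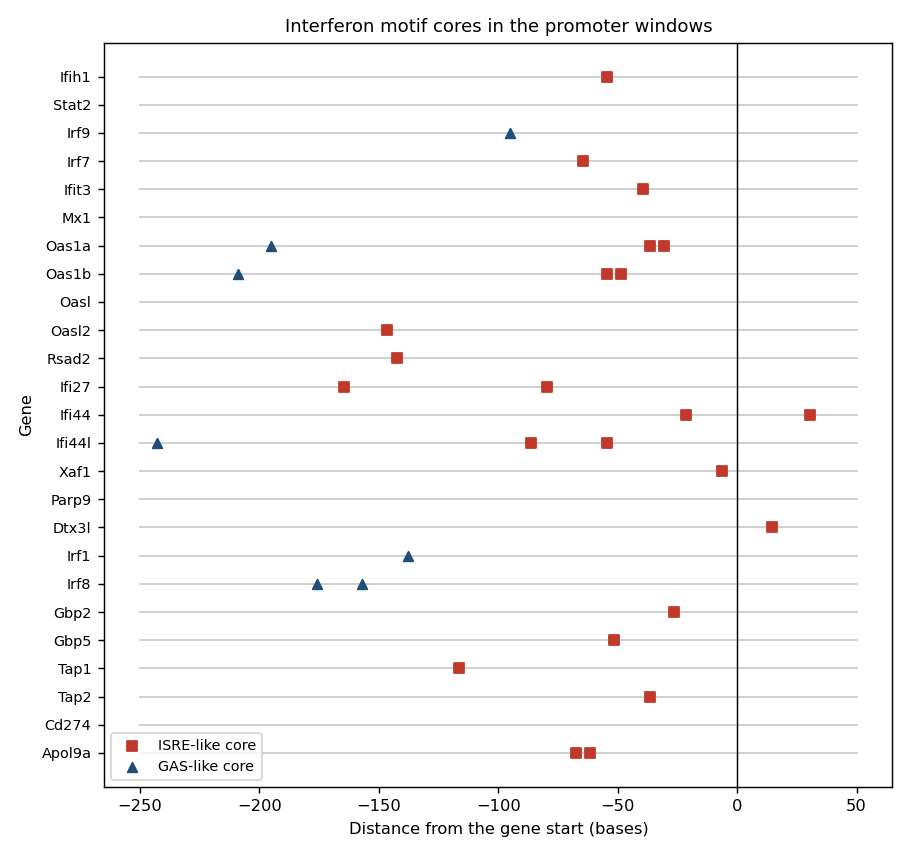
Positions of ISRE-like cores (squares) and GAS-like cores (triangles) in the 25 promoter windows, with the distance from the gene start in bases on the horizontal axis and 1 grey line per window. Most ISRE-like cores lie shortly before the gene start, and 5 windows hold neither core.

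The depth recovered from the deposited values was 13531587 to 16868678 reads per tumor, and 17684 to 18330 rows were above 0 in each. In the fit across all 13631 rows, limma called 0 genes at an adjusted p under 0.05 (0% of rows), with 0.819 as the lowest adjusted p. An unadjusted p under 0.05 was reached by 797 rows (5.85%), and limma-voom on the recovered reads called 0, with 704 at an unadjusted p under 0.05. The median difference of all rows was −0.005 on the log2(FPKM + 1) scale and its 95% interval had a median half-width of 0.57. Markers of the labelled tissue were present in every tumor, 14 of 14 luminal epithelial and 9 of 9 myoepithelial markers being above 0 in all 6. Vehicle tumor 1 stood apart by its skeletal muscle markers, summed to 1194 FPKM against 17.2 to 40.7 FPKM in the other tumors, and vehicle tumor 2 by T and NK cell markers, summed to 901.5 FPKM against 173.7 to 444.0 FPKM.

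Among the 24 measured type I genes, 20 had a higher mean in the DATS tumors and 4 a lower one, with a median difference (DATS minus vehicle) of 0.28 on the log2(FPKM + 1) scale and a range of −0.50 to 0.89. Over all rows 49.2% were higher. With tumor totals set equal, which moved the median of all rows from −0.005 to −0.161, 15 of the 24 were higher and their median was 0.12. The high values came mainly from DATS tumor 1, which held the highest level of 18 of the 24 genes (75%) and the lowest of 0, while 2609 of all 13631 rows (19.1%) were highest there. With each gene centred on its own mean, the type I genes averaged 0.74, −0.05 and −0.27 in DATS tumors 1, 2 and 3, and −0.14, −0.21 and −0.08 in vehicle tumors 1, 2 and 3. DATS tumor 3 thus lay below all vehicle tumors in that average. Without DATS tumor 1, 10 of the 24 genes were higher in DATS and the median difference was −0.03. The level in DATS tumor 1 was a median of 1.59 times the mean of the other 5 tumors and passed 1.5 times in 14 of the 24 genes, against 9.14% of all rows.

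**Figure D2:**
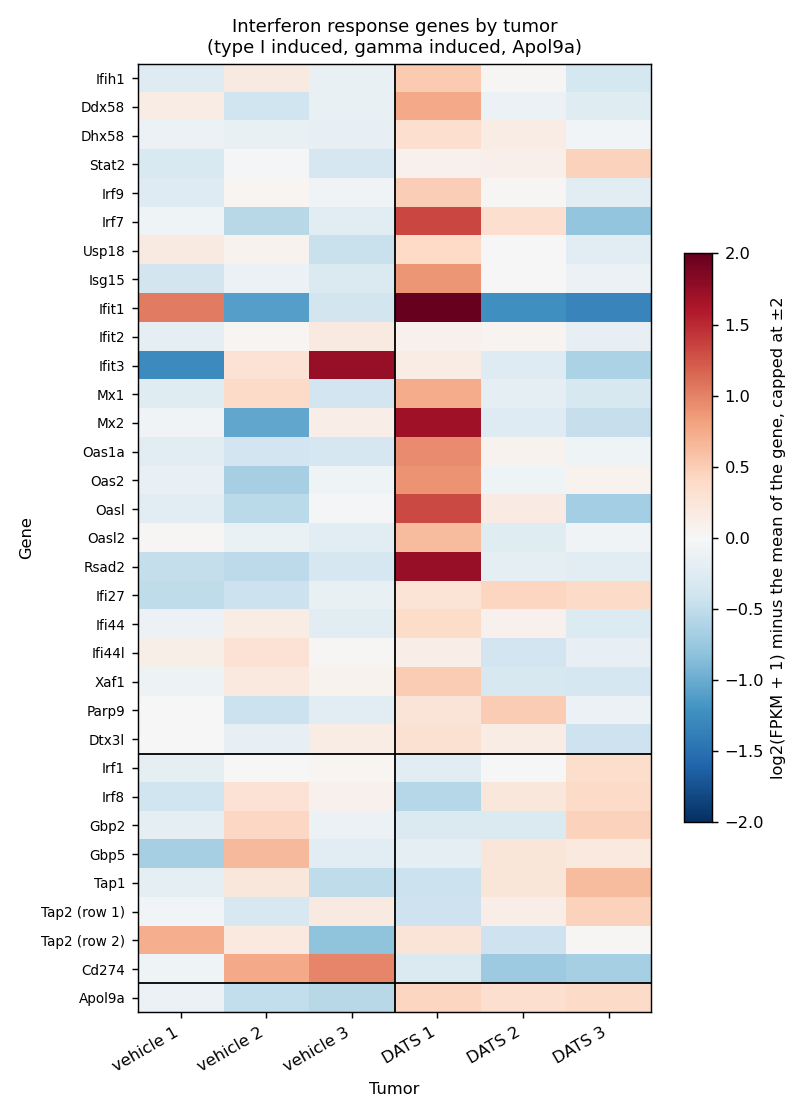
Level of each gene in each tumor as log2(FPKM + 1) minus the mean of that gene over the 6 tumors, with colours capped at ±2. Horizontal lines part the type I genes, the gamma genes and Apol9a, and the vertical line parts vehicle from DATS. The DATS 1 column is red through most of the upper block and blue through most of the middle block.

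In 6 of the 24 type I genes all DATS tumors lay above all vehicle tumors (Dhx58, Stat2, Oas1a, Oas2, Rsad2 and Ifi27), and in 0 genes below. That order was met by 6.72% of all rows, and nothing is read from the count since the genes were chosen on this contrast.

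The RNA sensors detect viral or misplaced RNA in the cytosol. Ifih1 (MDA5), which senses long double-stranded RNA, stood at 4.25, 6.14 and 4.68 FPKM in vehicle tumors 1, 2 and 3 and at 8.04, 5.40 and 3.93 FPKM in DATS tumors 1, 2 and 3. Ddx58 (RIG-I), which senses RNA ends with a 5′ triphosphate, stood at 4.65, 2.83 and 3.58 FPKM in the vehicle tumors and at 7.61, 3.68 and 3.29 FPKM in the DATS tumors. In both genes DATS tumor 1 was highest and the other DATS tumors lay within or below the vehicle range. The differences were 0.14 ± 0.27 (SE) for Ifih1 and 0.27 ± 0.32 (SE) for Ddx58 on the log2 scale, and −0.09 and −0.05 without DATS tumor 1. Dhx58 (LGP2), a relative that modulates the other sensors, stood at 17.8, 17.2 and 17.0 FPKM in the vehicle tumors and at 24.8, 21.4 and 18.6 FPKM in the DATS tumors. Its groups did not overlap, and the difference was 0.29 ± 0.15 (SE), or 0.19 without DATS tumor 1.

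The signal transducers and the feedback regulator were all higher on average in DATS, with a median difference of 0.32 over 4 genes. Without DATS tumor 1, 2 of the 4 were higher, Irf9 (−0.004) and Usp18 (−0.035) being the others, and the median was 0.03. With equal tumor totals, where the median of all rows was −0.161, Usp18 was also lower (−0.04). Stat2, a subunit of the ISRE-binding complex, stood at 26.1, 32.0 and 25.5 FPKM in the vehicle tumors and at 34.7, 35.1 and 45.1 FPKM in the DATS tumors. Its groups did not overlap and its highest level was in DATS tumor 3, unlike the other signal transducers. The Stat2 difference was 0.44 ± 0.17 (SE) and 0.51 without DATS tumor 1. Irf7, the transcription factor that amplifies interferon alpha production, stood at 60.2, 43.2 and 54.3 FPKM in the vehicle tumors and at 162.7, 80.8 and 36.7 FPKM in the DATS tumors. Irf7 was thus both highest and lowest in DATS tumors, DATS tumor 1 holding 2.96 times the mean of the other 5 tumors. Its difference was 0.59 ± 0.51 (SE) and 0.07 without DATS tumor 1. Irf9, the DNA-binding subunit of that complex, ranged from 36.6 to 45.0 FPKM in the other 5 tumors and stood at 62.0 FPKM in DATS tumor 1. Usp18, a protease that removes ISG15 and damps receptor signalling, ranged from 20.1 to 31.5 FPKM in the other 5 tumors and stood at 36.7 FPKM in DATS tumor 1.

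Of the antiviral effectors, 9 of 11 were highest in DATS tumor 1, with a centred average of 1.10 in that tumor. Rsad2 (viperin), an enzyme that makes a chain-terminating nucleotide, stood at 1.45, 1.39 and 1.73 FPKM in the vehicle tumors and at 10.5, 2.02 and 1.94 FPKM in the DATS tumors, from 538 recovered reads in DATS tumor 1 and 75 to 100 in the others. All 3 DATS tumors were above the vehicle tumors, but only DATS tumor 1 by a wide margin, at 6.15 times the mean of the other 5. Its difference was 0.89 ± 0.54 (SE) and 0.24 without DATS tumor 1. Mx2, an interferon-induced GTPase, stood at 19.8, 9.70 and 23.1 FPKM in the vehicle tumors and at 69.8, 17.3 and 14.9 FPKM in the DATS tumors. Here DATS tumors 2 and 3 lay inside the vehicle range, and the difference went from 0.65 ± 0.62 (SE) to −0.04 without DATS tumor 1. Mx1, which is 1 protein-coding gene away from Mx2 in the RefSeq annotation, stood at 32.8 FPKM in DATS tumor 1 and between 14.5 and 25.3 FPKM elsewhere.

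The oligoadenylate synthetases make the messenger that activates RNase L. Oas1a stood at 23.4, 20.7 and 21.4 FPKM in the vehicle tumors and at 53.5, 28.7 and 25.5 FPKM in the DATS tumors. Oas2 stood at 2.49, 1.42 and 2.63 FPKM in the vehicle tumors and at 6.19, 2.65 and 3.06 FPKM in the DATS tumors. The groups did not overlap in either gene, although Oas2 in DATS tumor 2 was above vehicle tumor 3 by only a narrow margin. The differences were 0.62 ± 0.28 (SE) for Oas1a and 0.60 ± 0.33 (SE) for Oas2, and both were 0.30 without DATS tumor 1. The related Oasl was at 22.3 FPKM in DATS tumor 1 and between 4.84 and 9.49 FPKM elsewhere, and its direct neighbour Oasl2 was at 32.4 FPKM in DATS tumor 1 and between 17.1 and 20.8 FPKM elsewhere. Isg15, a ubiquitin-like protein that is attached to other proteins, was at 58.7 FPKM in DATS tumor 1 and between 24.3 and 31.7 FPKM elsewhere.

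The Ifit genes encode proteins that bind foreign RNA, and they did not vary together although they are close neighbours in the genome. Ifit1 stood at 4.17, 0.164 and 0.935 FPKM in the vehicle tumors and at 19.0, 0.0716 and 0 FPKM in the DATS tumors, from 549 recovered reads in DATS tumor 1 and 0 to 152 in the others. The Ifit1 difference was 0.29 ± 1.24 (SE), but −0.61 on log2(FPKM + 0.1), −1.60 in limma-voom and −1.13 without DATS tumor 1. Ifit3 stood at 1.11, 5.26 and 16.2 FPKM in the vehicle tumors and at 4.67, 3.27 and 2.30 FPKM in the DATS tumors. Ifit1 was therefore highest in DATS tumor 1 and Ifit3 in vehicle tumor 3, where Ifit1 was under 1 FPKM. Ifit2, directly beside Ifit3, ranged only from 5.61 to 7.64 FPKM. The Ifit3 difference was −0.50 ± 0.73 (SE), the lowest of the type I genes, but 0.24 without vehicle tumor 3. Members of the Ifit, Oas and Mx families have close relatives, and how the counting divided reads between such copies is not given in the sources used here.

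**Figure D3:**
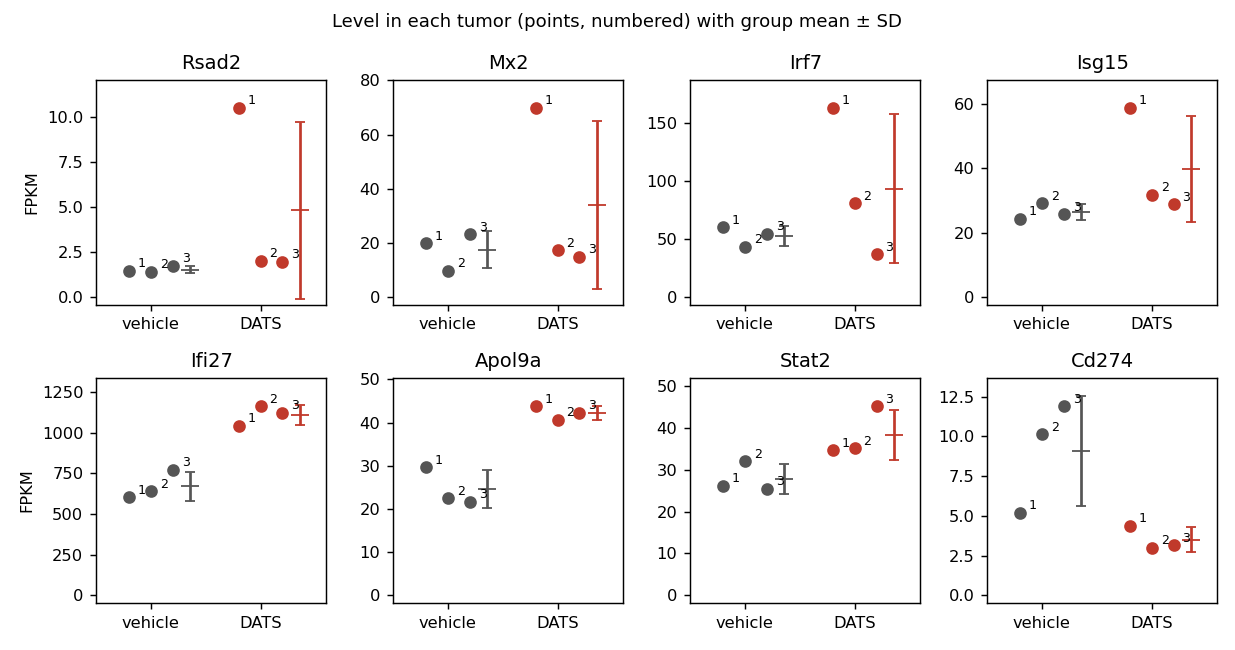
FPKM of 8 genes in each tumor (numbered points), with the mean and SD of each group of 3 beside them. In the upper row (Rsad2, Mx2, Irf7, Isg15) DATS tumor 1 stands alone. In the lower row (Ifi27, Apol9a, Stat2, Cd274) the groups do not overlap, which also holds for Rsad2 by a narrow margin.

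The remaining type I genes were mixed. Ifi27, which encodes a small membrane protein and was the most abundant of the matched transcripts per length, stood at 602.5, 639.7 and 772.5 FPKM in the vehicle tumors and at 1041, 1161 and 1123 FPKM in the DATS tumors. Its groups did not overlap, its highest value was not in DATS tumor 1, and its difference of 0.73 ± 0.18 (SE) was 0.77 without that tumor. Parp9, an ADP-ribosyltransferase family protein, stood at 72.8, 54.0 and 62.6 FPKM in the vehicle tumors and at 87.8, 104.4 and 67.4 FPKM in the DATS tumors, a difference of 0.44 ± 0.21 (SE) with overlapping groups. Dtx3l, the ubiquitin ligase that partners with PARP9 and lies directly beside its gene, had a difference of 0.02 ± 0.22 (SE). Ifi44l stood at 16.1, 18.3 and 15.1 FPKM in the vehicle tumors and at 16.3, 11.1 and 13.2 FPKM in the DATS tumors, and its neighbour Ifi44 was at 40.1 FPKM in DATS tumor 1 and between 25.5 and 34.3 FPKM elsewhere. Xaf1, a pro-apoptotic antagonist of XIAP, stood at 22.7, 28.1 and 25.8 FPKM in the vehicle tumors and at 35.1, 19.4 and 19.0 FPKM in the DATS tumors. For Xaf1, DATS tumor 1 was the highest of the 6 and the other DATS tumors were the lowest, a difference of −0.11 ± 0.26 (SE) that was 0.04 without DATS tumor 3, while Ifi44l differed by −0.28 ± 0.18 (SE).

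Apol9a, a rodent apolipoprotein L gene induced by interferon in mice, stood at 29.6, 22.4 and 21.6 FPKM in the vehicle tumors and at 43.7, 40.7 and 42.2 FPKM in the DATS tumors. The 3 DATS tumors were close to each other (42.2 ± 1.52 FPKM, SD, n = 3) and above all vehicle tumors (24.6 ± 4.41 FPKM, SD, n = 3). The difference was 0.77 ± 0.16 (SE) and 0.75 without DATS tumor 1. Apol9a was in the list for this separation, so its values support nothing about the other genes.

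**Figure D4:**
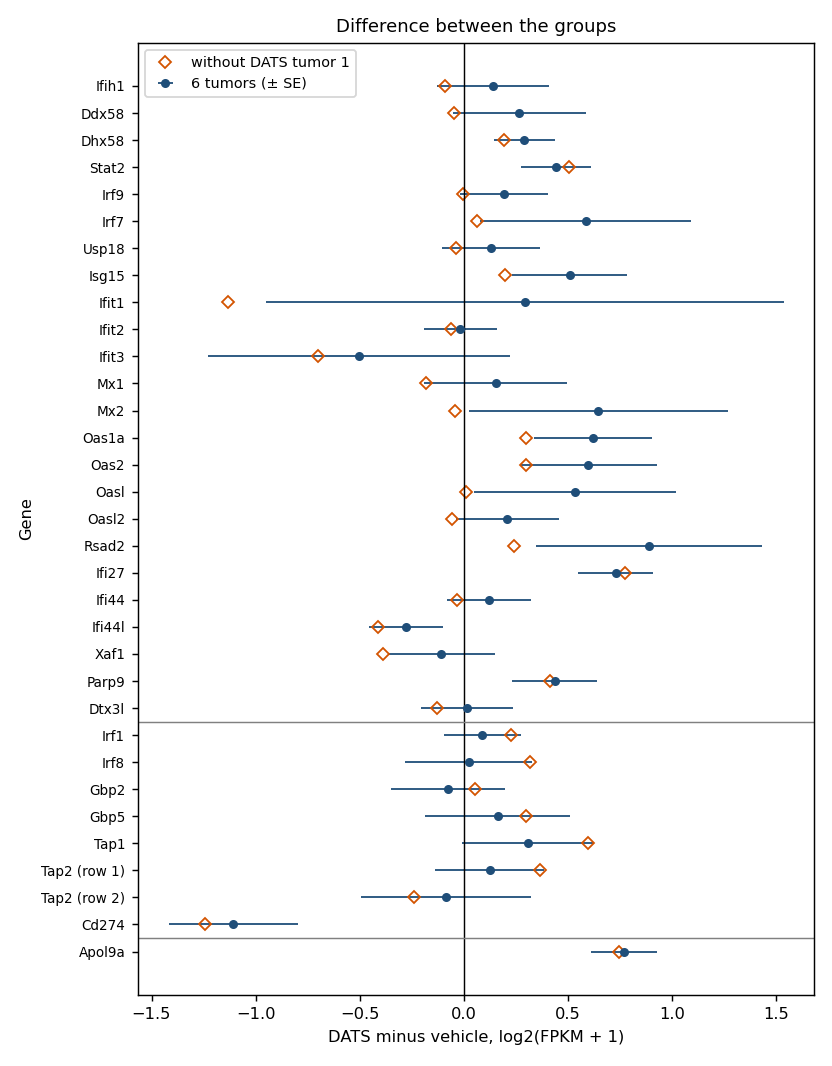
Difference between the group means of log2(FPKM + 1), DATS minus vehicle, per gene, with all 6 tumors (filled circles, ± SE) and without DATS tumor 1 (open diamonds). Horizontal lines part the type I genes, the gamma genes and Apol9a. For Ifi27, Apol9a, Stat2 and Parp9 both symbols lie close together, whereas Irf7, Mx2, Rsad2 and Oasl move toward 0 and Ifit1 moves to −1.13.

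The interferon gamma genes followed other tumors. Of the 8 rows that passed the filter, 5 were higher and 3 lower in DATS, with a median difference of 0.06 on the log2 scale, and 3 of the 8 were higher after quantile normalization. Here 5 of the 8 rows were highest in DATS tumor 3, 0 were highest in DATS tumor 1, and 4 were lowest in DATS tumor 1. The centred averages were 0.23 in DATS tumor 3 and 0.28 in vehicle tumor 2, and −0.27 in DATS tumor 1, the reverse of the type I order for DATS tumors 1 and 3. Without DATS tumor 3, 2 of the 8 rows were higher in DATS and the median was −0.10. With tumor totals set equal, where the median of all rows was −0.161, also 2 were higher.

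Irf1, a transcription factor induced early by interferon gamma, stood at 70.2, 80.4 and 81.8 FPKM in the vehicle tumors and at 68.0, 80.3 and 102.1 FPKM in the DATS tumors, a difference of 0.09 ± 0.18 (SE), or −0.06 without DATS tumor 3. Irf8, a transcription factor of myeloid and B cells, ranged from 19.2 to 33.5 FPKM in the other 5 tumors and stood at 16.9 FPKM in DATS tumor 1. Both factors were lowest in DATS tumor 1 and highest in DATS tumor 3. Gbp2, a guanylate-binding protein that acts on intracellular pathogens, stood at 39.5, 60.5 and 41.2 FPKM in the vehicle tumors and at 36.5, 36.8 and 62.4 FPKM in the DATS tumors, a difference of −0.08 ± 0.27 (SE) that lay between −0.33 and 0.12 with 1 tumor left out. Its relative Gbp5 ranged from 4.67 FPKM in vehicle tumor 1 to 13.1 FPKM in vehicle tumor 2. Both guanylate-binding proteins had overlapping groups.

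Tap1 and Tap2 form the transporter that carries peptides to MHC class I. Tap1 stood at 48.2, 64.2 and 38.4 FPKM in the vehicle tumors and at 40.6, 65.2 and 85.9 FPKM in the DATS tumors, a difference of 0.31 ± 0.32 (SE). It was 0.06 without DATS tumor 3, 0.13 without vehicle tumor 3 or with equal tumor totals, and 0.60 without DATS tumor 1. The Tap2 rows differed from each other, the first (ENSRNOG00000046031) ranging from 11.4 to 21.9 FPKM with its highest level in DATS tumor 3, and the other (ENSRNOG00000000455) from 3.64 to 12.4 FPKM with its highest level in vehicle tumor 1. Reads shared between those rows cannot be told apart here.

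Cd274 and Ido1 are known for restraining T cells. Cd274, which encodes PD-L1, stood at 5.20, 10.1 and 11.9 FPKM in the vehicle tumors and at 4.38, 2.98 and 3.15 FPKM in the DATS tumors. All DATS tumors lay below all vehicle tumors, an order met by 5.50% of all rows and by only this gene among the 8 gamma rows. The group means were 9.07 ± 3.46 FPKM (SD, n = 3) for vehicle and 3.50 ± 0.77 FPKM (SD, n = 3) for DATS, and the difference was −1.11 ± 0.31 (SE) with all tumors and −1.24 without DATS tumor 1. Ido1, which degrades tryptophan, stood at 0, 1.05 and 0.056 FPKM in the vehicle tumors and at 0, 0.242 and 0.352 FPKM in the DATS tumors. With 0 to 19 recovered reads per tumor, no difference in Ido1 was detectable at this depth.

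The spread between tumors of the same treatment was wider in the interferon genes than in the median row. The residual SD of log2(FPKM + 1) within groups had a median of 0.35 over the 24 type I genes, 0.43 over the 8 gamma rows and 0.29 over all rows. Without DATS tumor 1 the type I median was 0.22 and that of all rows 0.26, while the gamma median was 0.37.

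Genes of the same pathways that were not among the 34 were tested in the fit across all rows, from lists totalling 109 symbols, of which 102 were matched and 92 passed the filter. None was called by limma at an adjusted p under 0.05, and 3 of the 92 reached an unadjusted p under 0.05, all higher in DATS, against 797 of all 13631 rows (5.85%), of which 510 were higher and 287 lower. Other type I genes passed the filter in 43 of 46 cases, 32 being higher and 11 lower in DATS with a median difference of 0.13, and 20 of the 43 (46.5%) were highest in DATS tumor 1. With equal tumor totals, where the median of all rows was −0.161, 18 of the 43 were higher and their median was −0.04. Without DATS tumor 1 it was 22 of the 43 and 0.003. All DATS tumors lay above all vehicle tumors in 7 of the 43 and below in 1, orders met by 6.72% and 5.50% of all rows. Ogfr, the opioid growth factor receptor gene, stood at 50.0, 44.5 and 43.4 FPKM in the vehicle tumors and at 64.0, 75.9 and 72.9 FPKM in the DATS tumors, a difference of 0.61 ± 0.14 (SE, limma adjusted p = 0.819). Parp14, another ADP-ribosyltransferase, differed by −0.34 ± 0.17 (SE, limma adjusted p = 0.819). The others under an unadjusted p of 0.05, named after their values were seen, were Bst2 (tetherin, which holds budding virus at the cell surface), with a difference of 0.91 ± 0.30 (SE), and Ifi27l2b, a relative of Ifi27, with 1.09 ± 0.31 (SE).

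Other interferon gamma genes passed the filter in 20 of 24 cases, 11 being higher and 9 lower in DATS, with 11 of the 20 highest in vehicle tumor 2 and 7 in DATS tumor 3. Their median difference was 0.16, and 0.03 without DATS tumor 3. Without vehicle tumor 2, 19 of the 20 were higher in DATS and the median difference was 0.35. With equal tumor totals it was −0.01, where the median of all rows was −0.161. The chemokine Cxcl9, which attracts T cells, stood at 66.4, 153.0 and 67.5 FPKM in the vehicle tumors and at 31.1, 99.5 and 115.9 FPKM in the DATS tumors. The immunoproteasome subunit Psmb9 stood at 243.9, 211.3 and 101.6 FPKM in the vehicle tumors and at 144.1, 216.2 and 438.4 FPKM in the DATS tumors. In both, the groups overlapped and DATS tumor 1 was the lowest of the DATS tumors. The MHC class I gene RT1-A2, whose family has near-identical copies, was at 228.2, 490.7 and 667.1 FPKM in the DATS tumors and between 208.7 and 294.3 FPKM in the vehicle tumors, with a difference of 0.84 ± 0.41 (SE, limma adjusted p = 0.819) that was 0.51 without DATS tumor 3. Cxcl10 differed by 0.38 ± 0.37 (SE), or 0.06 without vehicle tumor 3, and Cxcl11 by −0.58 ± 0.81 (SE), with limma adjusted p of 0.877 and 0.920.

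Few interferon genes themselves were read. Of 10 matched ligands and inducing cytokines 4 passed the filter, and Ifnb1, the interferon beta gene, was listed at 0 in all 6 tumors. Ifnk, the epithelial type I interferon kappa, stood at 3.78, 4.74 and 7.95 FPKM in the vehicle tumors and at 18.7, 7.11 and 2.27 FPKM in the DATS tumors, highest in DATS tumor 1 like most type I genes. Ifng, the interferon gamma gene, stood at 0.667, 3.46 and 0.948 FPKM in the vehicle tumors and at 0, 0.726 and 1.27 FPKM in the DATS tumors. Its highest level was in vehicle tumor 2, and it was listed at 0 in DATS tumor 1. The differences were 0.36 ± 0.64 (SE) for Ifnk and −0.63 ± 0.50 (SE) for Ifng, with limma adjusted p of 0.936 and 0.860, and Il12a, a subunit of interleukin 12, differed by −0.52 ± 0.30 (SE, limma adjusted p = 0.842).

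All 6 receptor genes passed the filter and 5 were lower in DATS, none of them called. Vehicle tumor 2 held the highest level of 5 of the 6. Without that tumor 3 of the 6 were higher in DATS, with a median difference of 0.014. Ifnar1, a chain of the type I receptor, stood at 21.1, 31.8 and 28.9 FPKM in the vehicle tumors and at 21.3, 21.9 and 20.3 FPKM in the DATS tumors, a difference of −0.33 ± 0.18 (SE, limma adjusted p = 0.821). Ifngr1 differed by −0.09 ± 0.27 (SE) and Ifnlr1, the interferon lambda receptor chain, by 0.12 ± 0.30 (SE). Of 10 signalling genes 4 were higher in DATS. Irf3, the factor that nucleic acid sensors activate, differed by 0.23 ± 0.15 (SE) and the kinase Jak1 by −0.28 ± 0.22 (SE). Of 9 nucleic acid sensing genes 5 were higher in DATS, the adaptor Myd88 differing by 0.26 ± 0.20 (SE) and the kinase Ikbke by −0.49 ± 0.25 (SE).

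Some cell type markers were high in the same tumors as the interferon genes, though not in every tumor, and their part in these results was not tested. In such bulk samples, fewer cells of a type and less RNA per cell cannot be told apart. T and NK cell markers, 16 of 16 above 0 in every tumor, summed to 206.2, 901.5 and 193.7 FPKM in the vehicle tumors and to 173.7, 414.3 and 444.0 FPKM in the DATS tumors. Macrophage markers, 11 of 11 above 0, summed to 641.3, 1511 and 1195 FPKM in the vehicle tumors and to 833.3, 1391 and 1654 FPKM in the DATS tumors. Both sums were highest in vehicle tumor 2 and DATS tumor 3, where the gamma genes were high. Most of the macrophage sum came from C1qa, C1qb and C1qc, at 602.7, 357.3 and 478.9 FPKM in DATS tumor 3. Of the 10 macrophage markers that passed the filter, 7 were highest in vehicle tumor 2 and 3 in DATS tumor 3. The macrophage centred averages were 0.65 and 0.22 in those tumors. As centred averages, however, T and NK cell markers stood at 0.41 in DATS tumor 2 and 0.28 in DATS tumor 3. The gamma genes averaged −0.07 and 0.23 there. The T and NK cell sum was lowest in DATS tumor 1, where the type I genes were high. Myoepithelial markers, 9 of 9 above 0, summed to 1156, 1125 and 2299 FPKM in the vehicle tumors and to 2897, 2935 and 1289 FPKM in the DATS tumors, and all 9 were higher on average in DATS, 6 of them highest in DATS tumor 1. Their sum was as high in DATS tumor 2, where the type I average was near 0. In vehicle tumor 3 their centred average was 0.33 and the type I average −0.08. Luminal epithelial markers summed to 2939, 2128 and 2743 FPKM in the vehicle tumors and to 2890, 3400 and 4603 FPKM in the DATS tumors. Of the 14, 12 were higher in DATS with a median difference of 0.44, and limma called 0. All DATS tumors lay above all vehicle tumors in 3 of the 14, against 6.72% of all rows. An unadjusted p under 0.05 was reached by 3, against 5.85% of all rows. B and plasma cell markers, 8 of 9 above 0 in every tumor, summed to 32.3 to 93.2 FPKM in the vehicle tumors and to 29.9 to 44.0 FPKM in the DATS tumors.

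**Figure D5:**
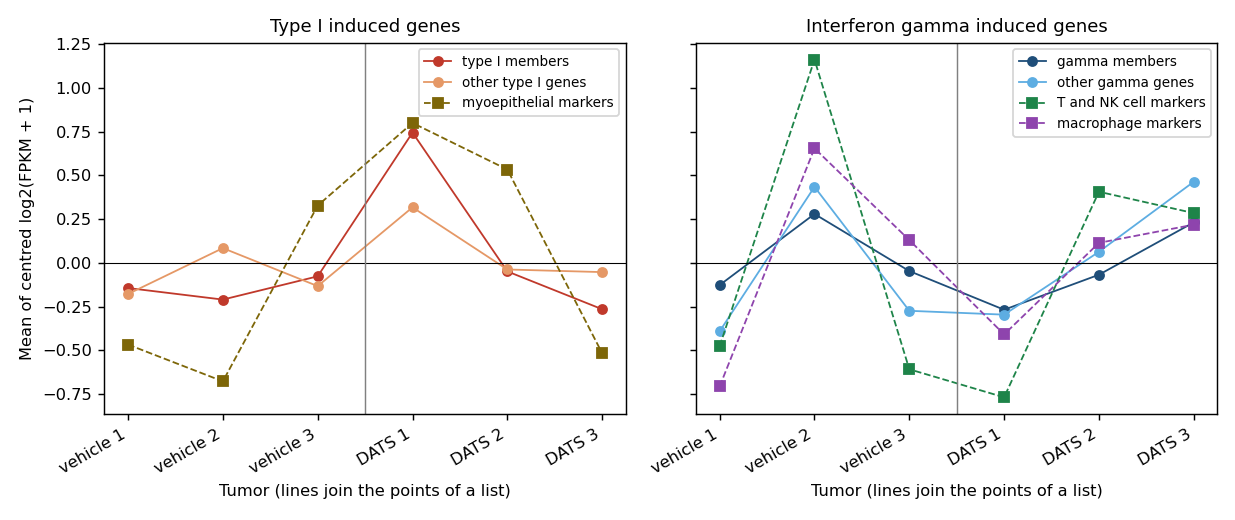
Mean of centred log2(FPKM + 1) in each tumor for the type I genes, other type I genes and myoepithelial markers (left) and for the gamma genes, other gamma genes, T and NK cell markers and macrophage markers (right). Solid lines with circles are interferon genes and dashed lines with squares are cell type markers. The type I genes peak in DATS tumor 1 (0.74), where T and NK cell markers are lowest (−0.77), and the gamma genes peak in vehicle tumor 2 and DATS tumor 3.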

How the data were processed

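RNA sequencing of 6 tumors was deposited by the authors as a table of FPKM per gene and tumor, keyed by rat Ensembl identifiers and gene symbols, as the file headers show. Not given in the sources used here were the aligner, counting tool, strand setting, genome build and annotation. The values were whole multiples of the value of 1 read within each gene (100% of the 20891 rows above 0, tolerance 1e-06), from which reads were recovered. A total of 503 symbols stood on several rows, which were kept apart.

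Rows with a mean of 1 FPKM or more were fitted as log2(FPKM + 1) in limma 3.58.1 (R 4.3.3) with group as the sole term, two-sided, and with moderated variances that follow an intensity trend, with Benjamini-Hochberg adjustment over all 13631 rows and a call at an adjusted p under 0.05. SE are from that fit. Fold changes of low genes are understated on this scale. The scripts were tested on simulated data.

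The 34 genes and all gene and marker lists were chosen with earlier results of these data known. Genes were named by level (the 3 most abundant of each class), by the largest and smallest differences, by groups that did not overlap, by textbook role, and, in the other lists, by role or the lowest p, except 1 gene that is not reported here. Alternatives were another pseudocount (0.1), other filters (none, or a mean of 5 FPKM), equal tumor totals, quantile normalization, limma-voom on recovered reads, no intensity trend, the replicate number as a block, and each tumor left out. Plots were drawn with matplotlib 3.10.9 and tables made with pandas 2.3.3 and numpy 2.4.6 under Python 3.11.15.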

Additional observations from a re-analysis of the deposited data

How the results depend on the processing

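No alternative called a gene at an adjusted p under 0.05. Leaving out 1 tumor at a time gave 428 to 1221 rows at an unadjusted p under 0.05 (797 with all tumors), 2446 to 3922 rows whose groups did not overlap (1666; smaller groups separate more often by construction), 10 to 22 type I genes higher in DATS (20), 2 to 6 gamma rows higher (5), and a type I residual SD of 0.221 to 0.407 (0.354). Equal tumor totals moved the median of all rows to −0.161. There Apol9a was at 0.598, Ifi27 at 0.550 and Dhx58 at 0.121, without subtracting the shift. At that setting 2 gamma rows were higher and 3 type I genes had groups that did not overlap, a count from which nothing is read. Quantile normalization left 3 gamma rows higher and Ifi27 at 0.384. The ISRE-like core followed by CT was held by 6 of 17 type I windows. Among the named genes of the 34, signs turned with 1 tumor left out for Mx2 (−0.040 to 1.040), Ifit3 (−1.268 to 0.243), Xaf1 (−0.388 to 0.039), Irf1 (−0.064 to 0.226), Gbp2 (−0.328 to 0.115), Ifih1 (−0.088 to 0.349) and Ddx58 (−0.048 to 0.455). Among the named other genes they turned for Ifngr1 (−0.290 to 0.127), Cxcl9 (−0.652 to 0.280), Cxcl11 (−1.354 to 0.077), Ifnk (−0.282 to 1.011) and Ifnlr1 (−0.041 with equal totals, −0.188 to 0.384). The difference of Ifit1 (0.293) also turned, to −0.611 with a pseudocount of 0.1 and −1.603 in limma-voom. The cause was not tested.

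Deviations of same-numbered tumors from their group means correlated at 0.152, −0.0229 and −0.116. Vehicle tumor 1 correlated best with its own number, and vehicle tumors 2 and 3 with another number. Whether same-numbered tumors were paired cannot be told from these correlations. With the number as a block, 0 genes were called and 594 had an unadjusted p under 0.05. At 0 to 19 reads per tumor, depth limits what can be said of Ido1.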
